A study of Zea mays with 4 samples.

Results

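PR-5 (LOC542720) and cpi2 (LOC100101525) are 2 defence protein genes of maize, followed here over 4 Affymetrix maize arrays. PR-5 encodes a thaumatin-like protein and cpi2 a cystatin. Every probe set whose single gene carries the symbol or synonym PR-5 or cpi2 was taken, which gave 1 for PR-5 and 4 for cpi2, 5 of the 17621 maize probe sets in the table. The 2 genes are among 1108 that probe sets with 1 symbol stand for. The genes were picked because of their values in the same comparison of lines that is described here, so what follows for them is a description with no test. The study compared aerial material of the maize lines Cm489 and F98908, with 2 arrays per line, in work on cell wall diversity. All plants were 21 days old, at the stage of 7 leaves, with no treatment named, and grew on compost with days of 16 h light and nights of 8 h, at 50% humidity. The labels name no tissue beyond the aerial part, no plant numbers and no pooling, and they give neither line a digestibility value. Both F98908 arrays carry one and the same extract label, of 213 ug of RNA, whereas each Cm489 array has a different one (177 and 170 ug). No label tells whether replicate arrays stand for separate plants, so the spread behind each p-value is that of these 4 samples and could be technical.

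Thaumatin-like proteins form family 5 of the pathogenesis-related proteins, which plants make after attack by fungi and other pathogens and under stress. Many members harm fungal membranes or bind fungal wall glucans, and the maize relative zeamatin was described for its antifungal activity in seed. Cystatins are small proteins that block papain-like cysteine proteinases by fitting into the active site. In cereals they act on the plant's own proteinases in seeds and ageing leaves, and on proteinases of insects and pathogens. The cysteine proteinases of maize therefore belong to the surroundings of cpi2, and other pathogenesis-related proteins to those of PR-5.

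All values below are deposited log2 values made with GCRMA, 1 per probe set and array, and a level on one probe set cannot be set against that on another. Values under log2 4 were treated as near background. A probe set was tested between the lines where it exceeded log2 4 on at least 2 of the 4 arrays, which 3 of the 5 members and 11263 probe sets in all did. Arrays were similar in their distribution, with medians between 6.64 and 6.66. Of the leaf markers, rbcS, the small subunit of Rubisco, lay between 11.53 and 12.28 on all arrays, and of the 5 probe sets of pdk1 (pyruvate phosphate dikinase) Zm.4471.4.A1_at lay between 8.88 and 9.76. Of the other pdk1 probe sets 1 was near 1.70 on all arrays, and 3 were higher on F98908 array 1 than on array 2, by 1.88 to 2.16 log2 units, against -0.26 to -0.03 between the Cm489 arrays. The C4 marker me3, an NADP-malic enzyme, lay between 2.99 and 3.0 on all arrays. The C4 marker pep1, a phosphoenolpyruvate carboxylase, was at 5.44 on Cm489 array 1 and no higher than 1.91 on the others. The kernel genes zp27 and o2 stayed at or under 5.02 on their 5 probe sets. The root gene zrp4 read 10.99 and 10.78 on the Cm489 arrays and 3.13 and 2.48 on the F98908 arrays. No pollen marker of the list was matched.

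PR-5 was bright on both F98908 arrays and on 1 of the 2 Cm489 arrays. Its probe set Zm.6659.1.A1_at read 2.90 on Cm489 array 1, 8.99 on Cm489 array 2, 11.22 on F98908 array 1 and 10.37 on F98908 array 2. The F98908 arrays were the highest 2 and the lines did not overlap, but Cm489 array 1 was near background while Cm489 array 2 lay 1.38 log2 units below the lower F98908 array. The line means were 5.94 ± 4.30 for Cm489 and 10.79 ± 0.60 for F98908 (SD, n = 2 arrays each), a difference of 4.85 on the log2 scale.

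The size of that difference depended on which Cm489 array was used. Against Cm489 array 2 the F98908 mean was 1.81 log2 units higher, or 3.50-fold. Against Cm489 array 1 it was 7.89 log2 units higher, at least 111-fold when array 1 is put at log2 4. The direction was the same for both. In aerial material of mixed cells, fewer cells of a type and less RNA per cell cannot be told apart.

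Between the Cm489 arrays, PR-5 was at least 31.7-fold higher on array 2, with a measured difference of 6.08 log2 units. Over all tested probe sets the median absolute difference between these arrays was 0.206, with 532 of them past 1 log2 unit. Only 3 of 11263, PR-5 included, differed by as much as PR-5, and all 3 were higher on array 2. The other two, named after their values were seen, are aba1, also listed as asr1, of a family named for abscisic acid, stress and ripening, and cyclotide, named for a class of small cyclic peptides. The aba1 probe set Zm.6532.1.A1_at read 2.33 and 11.13 on the Cm489 arrays and 13.01 and 12.55 on those of F98908. The other aba1 probe set, Zm.6532.1.A1_a_at, read 12.63 and 12.74 in Cm489 and 13.08 and 12.78 in F98908. The low value on Cm489 array 1 was thus seen on only 1 of the aba1 probe sets. Which of them follows the gene was not tested. PR-5 has no other probe set against which to check its low value. For cyclotide the values were 3.60 and 9.80 in Cm489 and 8.08 and 8.21 in F98908. PR-5 and Zm.6532.1.A1_at were highest in F98908, whereas cyclotide was highest on Cm489 array 2. These 3 were also the only probe sets under log2 4 on Cm489 array 1 and over log2 8 on the other 3 arrays. No probe set had this pattern with any other single array as the low one. The limits were set to describe the pattern of PR-5, so PR-5 meets them by choice, and the counts depend on them. The gene expB7, at 2.51 on Cm489 array 1, misses them with 6.98 on Cm489 array 2. Between the F98908 arrays PR-5 differed by 0.85, or 1.80-fold, and 345 probe sets (3.06%) differed as much. The leaf marker pep1, not a tested probe set, read 5.44 on Cm489 array 1, where PR-5 was low, and 1.91 on Cm489 array 2. The other leaf markers showed no such gap between the Cm489 arrays. There rbcS read 11.95 and 12.28, me3 2.99 and 3.0, and pdk1 on Zm.4471.4.A1_at 9.38 and 8.88. Any link of pep1 with PR-5 was not tested.

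**Figure D1:**
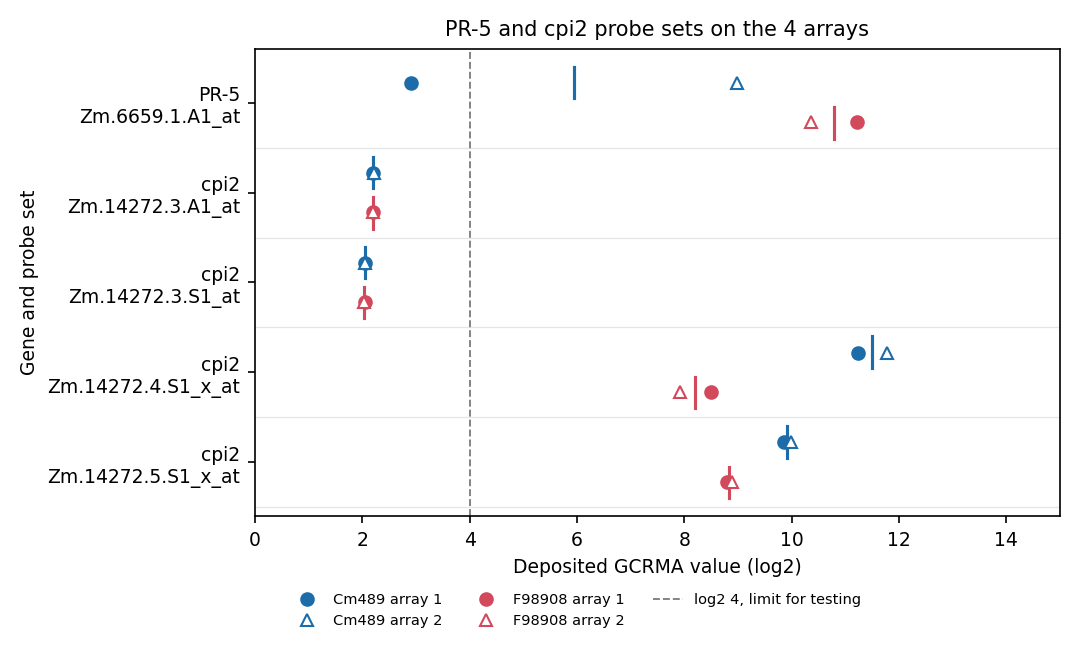
Deposited GCRMA values (log2, horizontal axis) of the 5 probe sets of PR-5 and cpi2 on the 4 arrays. Points are single arrays, short vertical bars the mean of a line, and the dashed line log2 4. PR-5 spans 2.90 to 8.99 in Cm489 and 10.37 to 11.22 in F98908, the upper pair of cpi2 rows stays near 2, and the lower pair is higher in Cm489.

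**Figure D2:**
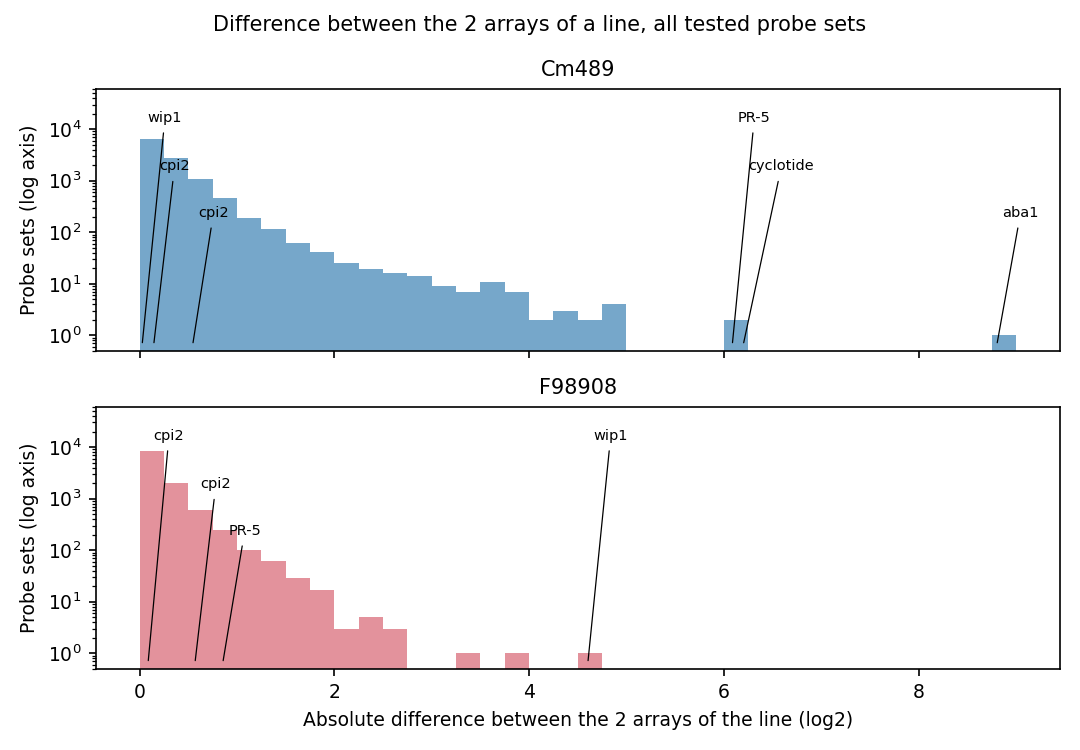
Number of tested probe sets (log axis) by the absolute difference between the 2 arrays of a line (log2, bins of 0.25), for Cm489 above and F98908 below. Lines mark PR-5, both bright cpi2 probe sets and wip1, and for Cm489 also the aba1 probe set Zm.6532.1.A1_at and cyclotide. PR-5 lies at 6.08 in Cm489 and at 0.85 in F98908, and wip1 at 4.60 in F98908.

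The cystatin gene cpi2 was higher in Cm489 on the 2 probe sets that gave a signal. Zm.14272.4.S1_x_at read 11.24 and 11.78 on the Cm489 arrays and 8.49 and 7.92 on the F98908 arrays. Both Cm489 arrays lay at least 2.75 log2 units above both F98908 arrays, and the means were 11.51 ± 0.38 and 8.21 ± 0.40 (SD, n = 2 arrays each). F98908 was thus 9.85-fold lower on this probe set, a log2 difference of -3.30. Single pairs of arrays from the lines gave between 6.71-fold and 14.5-fold.

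The other bright probe set of cpi2 gave the same direction with a smaller size. Zm.14272.5.S1_x_at read 9.854 and 9.996 on the Cm489 arrays and 8.80 and 8.88 on the F98908 arrays. The lines again did not overlap, with means of 9.92 ± 0.10 and 8.84 ± 0.06 (SD, n = 2 arrays each), a log2 difference of -1.09 or 2.12-fold. Array pairs ran from 1.96-fold to 2.30-fold, so the ranges of the 2 probe sets do not meet.

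The remaining pair of cpi2 probe sets gave no signal in either line. Zm.14272.3.A1_at lay between 2.19 and 2.21 and Zm.14272.3.S1_at at 2.04 on all 4 arrays. No direction can be read from them. Both bright probe sets are of the type marked x, in which some probes also match other transcripts, and both dim ones are not. Levels of cpi2 in these data rest on probe sets that other transcripts can reach, so cpi2 is uncertain as the source of the signal.

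The 3 bright probe sets of PR-5 and cpi2 all had lines that did not overlap, as did 63.9% of the tested probe sets. Since the genes were chosen on this comparison, nothing is read from that count and no call is given for them. Differences at least as large as that of PR-5 were found in 180 probe sets (1.60%), and as large as those of the cpi2 probe sets in 384 (3.41%) and 1525 (13.5%).

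Between the arrays of a line cpi2 moved little beside PR-5. Zm.14272.4.S1_x_at differed by -0.54 between the Cm489 arrays (array 1 minus array 2) and by 0.57 between the F98908 arrays. Differences as large were seen in 16.0% and 7.63% of all tested probe sets. Zm.14272.5.S1_x_at differed by -0.14 and -0.08, below the median absolute difference of 0.206 in Cm489 and of 0.131 in F98908. The difference between the lines was larger than either within-line difference for both probe sets. For PR-5 the difference within Cm489, 6.08, was larger than the difference between the lines.

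A further cystatin gene, Cystatin-1 (LOC542213, also listed as psei1), has probe sets whose names share the stem Zm.14272 with those of cpi2. Its 2 probe sets passed the test in opposite directions (limma, Benjamini-Hochberg adjustment, threshold 0.05), where 15.3% of all tested probe sets passed. Zm.14272.2.A1_a_at fell from 13.54 and 13.60 on the Cm489 arrays to 12.56 and 12.48 on the F98908 arrays, by 1.05 ± 0.10 (log2 difference ± SE; limma, adjusted p = 0.0114). Zm.14272.2.A1_at rose from 9.36 and 7.86 to 11.79 and 11.84, by 3.20 ± 0.55 (limma, adjusted p = 0.0404). The fall on the first was close in size to that of cpi2 on Zm.14272.5.S1_x_at, and it had the second most similar pattern to that probe set among the named genes. How much of the signal of one gene is read on probe sets of the other was not tested.

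Among the other cystatins, cc7 read 11.40 and 11.78 in Cm489 and 10.94 and 10.83 in F98908, a log2 difference of -0.70 ± 0.17 (SE) that was not called (limma, adjusted p = 0.0797). The gene cc3 stayed at or under 2.02 on all arrays. The symbol cys2, matched to the cystatin list by name, belongs to a cysteine synthase. It was counted apart and was not called (log2 difference -0.21; limma, adjusted p = 0.378).

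Cysteine proteinases include the papain-like enzymes that cystatins block. They gave 9 tested probe sets under 6 gene names, of which 1 rose, 1 fell and 7 were not called. That is 22.2% called, beside 15.3% of all tested probe sets, where 7.27% were higher and 8.02% lower in F98908. Both called genes encode legumain-type proteinases of the vacuole, named see2a and see2b after their rise in ageing leaves. The gene see2b read 10.08 and 10.55 in Cm489 and 11.97 and 11.78 in F98908, and rose 2.95-fold (log2 difference 1.56 ± 0.21 SE; limma, adjusted p = 0.0234). The gene see2a read 8.30 and 8.34 in Cm489 and 7.61 and 7.21 in F98908, and fell by 0.91 ± 0.17 on the log2 scale (limma, adjusted p = 0.0488), a call lost in 10 of 14 alternatives. The papain-like proteinase genes were not called. Those of ccp1 and ccp2, the latter also listed as see1, differed by -0.03, -0.29 and -0.14 on their 3 probe sets. The differences of mir2 and mir3, relatives of the proteinase gene mir1 known from insect resistance, were 0.82 for mir2 and 0.44 to 0.72 on the 3 probe sets named mir3 (limma, adjusted p from 0.0898 to 0.211). The mir3 probe set Zm.5987.1.A1_at belongs to another gene entry than the mir3 probe sets Zm.5987.1.A2_a_at and Zm.5987.1.A2_at. On all 4 probe sets of mir2 and mir3 both F98908 arrays lay above both Cm489 arrays, and Cm489 array 1 was the lowest array. Lines did not overlap in 63.9% of all tested probe sets, counting either direction. The share with F98908 above was not counted, nor was that with Cm489 array 1 lowest. Nothing is therefore read from the shared direction or the shared lowest array of mir2 and mir3. The gene mir1 itself stayed at or under 1.82.

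Other defence genes were mostly near background. The zeamatin-like gene Zlp, the only other thaumatin-like gene matched, did not exceed 3.28 on its 2 probe sets, so it was not tested. The genes PR-1, hm1 and rip2, for a pathogenesis-related protein, a toxin reductase and a ribosome-inactivating protein, stayed at or under 2.25. The chitinase gene chn1 lay around the limit, with 2.65 and 4.04 in Cm489 and 5.09 and 3.55 in F98908, and the lines overlapped (limma, adjusted p = 0.445).

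The gene wip1, a wound-induced proteinase inhibitor of the Bowman-Birk type, showed the largest difference of any tested probe set between the F98908 arrays. It read 2.68 and 2.71 on the Cm489 arrays, 4.72 on F98908 array 1 and 9.32 on F98908 array 2. Array 2 was 24.3-fold above array 1 although both carry the same extract label. Over the Cm489 arrays, put at log2 4, F98908 array 1 was at least 1.65-fold and array 2 at least 40.0-fold higher. The gene was not called (limma, adjusted p = 0.181). Fits with F98908 array 1 or 2 left out, or with both as 1 sample, take the spread of wip1 from the Cm489 arrays alone. Both Cm489 values are under log2 4, so nothing is read from the calls of wip1 in those fits. PR-5 and wip1 were thus both highest in F98908 and both uneven within a line, PR-5 between the Cm489 arrays and wip1 between those of F98908.

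Counted together by gene name, the defence list without PR-5 and cpi2 held 21 probe sets under 16 names, of which 14 under 10 names were tested. Of these 2 rose, 2 fell and 10 were not called, or 28.6% called beside 15.3% of all tested probe sets. The list's median log2 difference was 0.48, and that over all tested probe sets -0.03. Of its 4 calls 2 come from Cystatin-1 in opposite directions. With the array number as a block limma called 0 of the 14 (7 at an unadjusted p under 0.05, against 6 without the block). Calls over all tested probe sets also dropped with the block, from 1722 to 780. With the array numbers crossed, chosen after seeing the data, limma called 4 of the 14 (10 at an unadjusted p under 0.05).

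**Figure D3:**
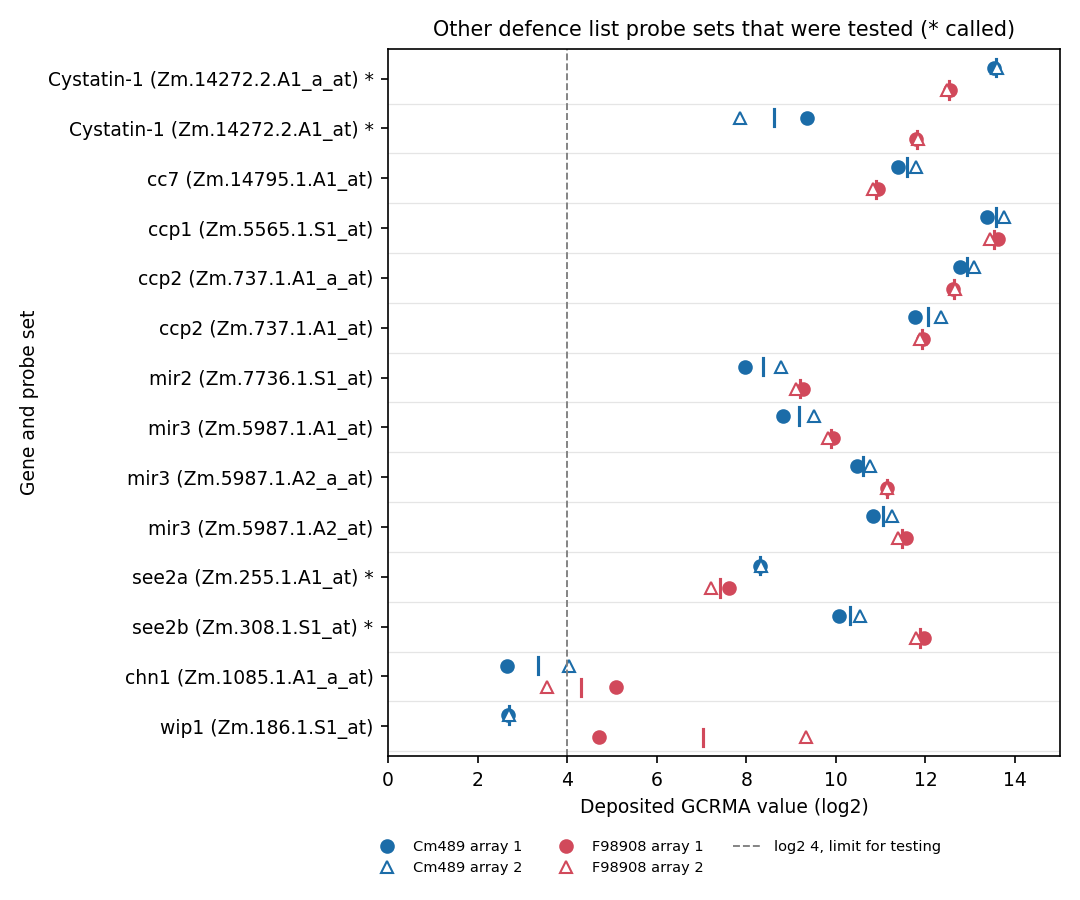
Deposited GCRMA values (log2, horizontal axis) of the 14 tested probe sets of other defence list genes on the 4 arrays, with an asterisk at the 4 that limma called. Points are single arrays, short vertical bars the mean of a line, and the dashed line log2 4. Both Cystatin-1 probe sets are called in opposite directions, and wip1 spans 4.72 to 9.32 in F98908.

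Patterns over the 4 arrays were compared by the root mean square difference of log2 values, each probe set centred on its own mean, over 970 tested probe sets with 1 gene symbol. With 4 arrays that share their line this is a description. The beta-expansin gene expB7 was nearest to PR-5, at 0.588 log2 units, with 2.51 and 6.98 in Cm489 and 10.36 and 9.24 in F98908. After it came the aba1 probe set Zm.6532.1.A1_at at 1.14 and the glutathione transferase gene gst2 at 1.41. All 3 probe sets were lowest on Cm489 array 1 and near background there, as that of PR-5 was. They were picked for likeness to PR-5, so the shared low array is no separate finding. The other aba1 probe set was bright on all 4 arrays. With values under log2 4 set to 4, gst5 took the place of gst2.

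The genes nearest to cpi2 differed between its probe sets. Nearest to Zm.14272.4.S1_x_at were NIT2, a nitrilase gene (0.0436), akh2, for an aspartate kinase-homoserine dehydrogenase (0.146), and SE1A (0.184). All 3 lay under log2 4 on both F98908 arrays, unlike cpi2, and values there have no reliable order. Nearest to Zm.14272.5.S1_x_at were GAPC, a cytosolic glyceraldehyde-3-phosphate dehydrogenase gene (0.0613, on Zm.274.3.S1_at), the a-type probe set of Cystatin-1 (0.0656) and brk1, for a small protein of actin assembly (0.0911). The other GAPC probe sets, Zm.274.3.S1_x_at (5.28 to 5.32) and Zm.2601.1.S1_at (13.14 to 13.22), did not share the pattern. No gene was among the nearest 3 of both. The measure keeps the size of the difference between the lines, -3.30 and -1.09 on these probe sets. A shared near gene was therefore not possible, and nothing is read from its absence.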

How the data were processed

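The deposited values are log2 values made by the authors with GCRMA, per the submitters' processing notes (its version was not given in the sources used). This method corrects background from probe sequence, normalises arrays to a common distribution and summarises probes. Normalising removes differences in total output, and the number of arrays limits precision. The 113 array controls were left out. Scanner files and sequences were not used here. Names came from the platform annotation, updated to RefSeq (Zm-B73-REFERENCE-NAM-5.0): 1452 probe sets have 1 symbol, 1 has several, the rest are unnamed here, and 1060 of 1108 genes matched. No genome build is named for the values, so positions are left out.

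Differences between lines were tested in limma 3.58.1 under R 4.3.3 (lmFit, eBayes, two-sided, F98908 minus Cm489, no block), adjusted by Benjamini-Hochberg over 11263 probe sets, after testing on simulated data. Where a value lay under log2 4, the fold is "at least", computed against log2 4. The members and the defence list were chosen with earlier results of these data known. The rule for named genes took all members, list genes called or differing by over 1 log2 unit within a line, leaf markers, and the 3 genes nearest to each bright member. The remaining list genes, the kernel and root markers, pep1, me3, gst5 and cyclotide fall outside it and were named after their values were seen. Alternatives covered filters, a floor, scaling, each array left out, F98908 as 1 sample, blocks, an intensity trend and probe set types.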

Additional observations from a re-analysis of the deposited data

How the results depend on the processing

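PR-5 and both bright cpi2 probe sets kept the direction of their differences under every alternative that gave a value. For most alternatives this was fixed in advance. The lines did not overlap, so leaving out or averaging arrays, or setting a floor, cannot reverse a difference. Filters, blocks and the intensity trend leave it unchanged. Only the scaling alternatives could have changed the direction. PR-5 ranged from 1.81 (without Cm489 array 1) to 7.89 (without Cm489 array 2). Without probe sets of the s, x and a types cpi2 has no value. The count of called probe sets, 1722 at first, was 1130 with a mean above log2 6, 418 with F98908 as 1 sample, 780 with the replicate block and between 433 and 1079 with 1 array left out. It was 433 without F98908 array 1, 443 without F98908 array 2, 916 without Cm489 array 2 and 1079 without Cm489 array 1. In a fit with 1 array or averaged sample in a line, only the other line gives a spread, and the lone sample is assumed to vary like it. The other list genes gave 4 calls, but 1 without a filter on dim probe sets and 0 with the replicate block. They gave fewer than 4 in every fit with 1 array left out or with F98908 as 1 sample. The cause was not tested. In fits with 1 F98908 sample the call of wip1 rested on the spread of Cm489 values under log2 4 alone. The call of see2a was lost in 10 of 14 alternatives (adjusted p up to 0.179) and that of see2b in 5 of 14 (up to 0.166). The calls of Cystatin-1 were lost in 5 of 13 (up to 0.117) and 5 of 14 (up to 0.216). The labels do not say that array numbers pair the samples, and the within-line differences of the lines correlated at r = -0.365 over tested probe sets. With the numbers crossed, chosen after seeing the data, 1862 were called. With values under log2 4 set to 4, only NIT2 stayed among the 3 genes nearest to cpi2 on Zm.14272.4.S1_x_at, and gst5 replaced gst2 beside PR-5.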
